A study of Homo sapiens with 204 samples.

Results

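Proteins in the body and platform of the small (40S) ribosomal subunit were depleted one at a time, RPS3A, RPS4X, RPS6, RPS13, RPS14, RPS23, RPS24 and RPS27, and the 8 knockdown lysates were taken as 1 group. They were chosen by target name, and make up 8 of the 91 knockdown lysates of the series, which covers 75 targets. The cells were A549, a human lung adenocarcinoma line, transfected with 40 nM siRNA against the named mRNA for 24 h. Each lysate gave an RNA-seq library (reads over exons, here mRNA) and a Ribo-seq library (ribosome-protected fragments over coding sequences, here footprints), made after cycloheximide, which halts elongating ribosomes. The 8 knockdowns were set against 11 control lysates of the same cells given a non-targeting siRNA at the same dose and time, against 11 lysates with other 40S proteins depleted (RPS2, RPS18, RPS19 and RPSA among them), and against 40 with a 60S protein depleted. Every knockdown here is 1 lysate per target, so the replicates of the group are different targets, and nothing in the labels says that the control lysates came from separate cultures. The p-values therefore measure the spread between these lysates.

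The 40S subunit is built around 18S rRNA. Proteins of its body and platform join the early precursor particles in the nucleolus, and the loss of many of them stops the cleavages that free 18S rRNA. When subunit assembly fails, RPL5 and RPL11 with 5S rRNA can bind MDM2, the ubiquitin ligase that keeps p53 low, and p53 then switches on its target genes. The mRNAs of the ribosomal proteins and of several elongation and initiation factors begin with a run of pyrimidines (C or T) at the 5′ end. These are the TOP mRNAs, whose translation is set as a group by mTOR signalling and by LARP1.

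The 8 RNA-seq libraries held 19748316 to 31710669 counts, against 19140655 to 42489287 in the controls, and the 8 Ribo-seq libraries 14576784 to 30186337, against 15096525 to 42617923 in the controls. The RPS27 footprint library was the shallowest of the 8, and control 20_2 stood apart from the other controls in mRNA. The labels split the controls into 5 with plain titles (1, 3, 5, 7 and 9) and 6 with numbered titles. Since all 8 knockdowns carry plain titles, a fit with that split as a term measures fold changes against the 5, and the other 6 enter the spread and the counts of lysates above or below "all 11 controls". In the order of the columns, RPS14, RPS23, RPS24 and RPS27 lie beside the 5 plain controls (the first run of columns here), and RPS3A, RPS4X, RPS6 and RPS13 beside controls 21_1 and 21_2 (the second run). The level of mitochondrially encoded mRNAs moved with these runs of columns. The mean over the 13 genes of the log2 ratio to the 5 controls was 0.60 to 0.92 in the knockdowns of the second run and −0.33 to 0.04 in those of the first, against 0.94 to 1.12 in controls 21_1 and 21_2. The A549 lysates held epithelial keratins (KRT18 901 to 1470 CPM, read counts scaled to library size, in the 8 knockdowns and 764 to 2560 CPM in the controls). Of 13 lung epithelial and A549 markers listed, 10 averaged over 1 CPM in mRNA. EPCAM was low (1.18 to 2.24 CPM in the knockdowns), and SFTPB, SFTPC and NKX2-1 were at or under 0.201 CPM there. Of 8 blood cell markers 2 averaged over 1 CPM, with CD68 at 18 to 30 CPM in the knockdowns and 20.7 to 35.4 CPM in the controls. The 6 endothelial markers summed to 0.0987 to 0.394 CPM in the knockdowns and 0.0448 to 0.555 CPM in the controls. Of the fibroblast markers only COL1A1 passed 1 CPM in mRNA, at 16.2 to 43.2 CPM in the knockdowns and 9.92 to 25.3 CPM in the controls.

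Each siRNA lowered its own mRNA to a few percent of control. The target mRNA left in its own library averaged 3.12 ± 1.85% of the 5 plain controls (SD, n = 8 targets), with RPS6 lowest at 1.58% and RPS24 highest at 6.22%. On the platform, RPS3A mRNA measured 12.1 CPM in the RPS3A knockdown, against 451 to 667 CPM in the 11 controls. RPS14 mRNA measured 38.7 CPM in its knockdown (5.70% left), against 580 to 1075 CPM in the controls. RPS27 mRNA measured 4.2 CPM in its knockdown (2.74% left), against 147 to 263 CPM in the controls. RPS13 mRNA, whose product binds the central domain of 18S rRNA, measured 11.4 CPM in its knockdown (3.21% left), against 256 to 392 CPM in the controls. In the body, RPS4X mRNA measured 25.2 CPM in its knockdown (1.83% left), against 1263 to 2032 CPM in the controls. RPS6, the protein phosphorylated by S6 kinase, had 25.9 CPM of mRNA in its knockdown, against 1525 to 1746 CPM in the controls. RPS23, which reaches the decoding centre, had 9.18 CPM of mRNA in its knockdown (1.74% left), against 463 to 556 CPM in the controls. RPS24 mRNA measured 25.6 CPM in its knockdown, against 226 to 640 CPM in the controls. No target mRNA in its own library overlapped the controls.

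Footprints on the targets fell less evenly. RPS4X footprints measured 14.8 CPM in the RPS4X knockdown (1.68% left), against 580 to 994 CPM in the controls. RPS13, RPS14, RPS23 and RPS24 footprints stood at 2.86%, 8.15%, 2.64% and 4.74% of the plain controls in their own knockdowns. RPS6 was the exception, with 504 CPM of footprints in its own knockdown, which is 30.7% of the plain controls, against 1177 to 1818 CPM in the 11 controls. RPS3A and RPS27 were thinly counted in footprints. RPS3A footprints were 0 counts in the RPS3A knockdown, which allows up to 0.192 CPM by a limit of 3 counts, against a median of 24 counts in the controls. RPS27 footprints were 6 counts in the RPS27 knockdown, against a median of 88 counts in the controls. These limits cover counting error only.

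**Figure D1:**
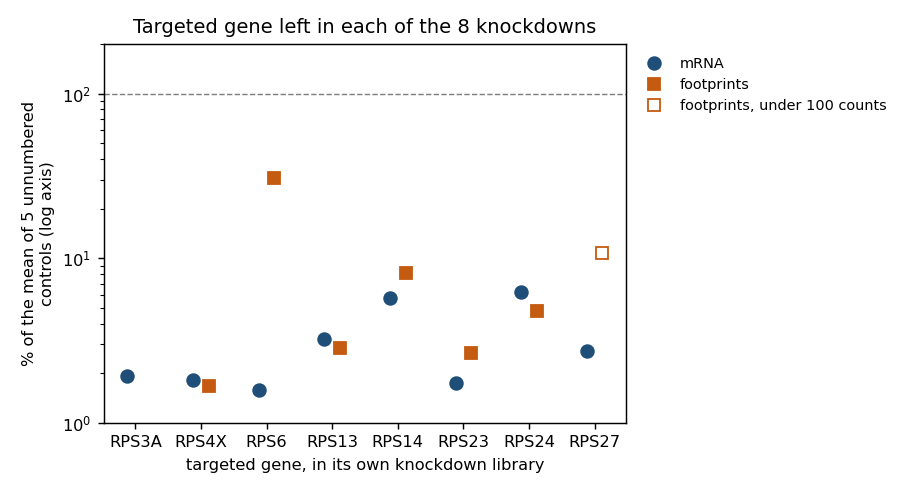
Percent of each target's level left in its own knockdown library relative to the mean of the 5 plain controls, on a log axis, for mRNA (circles) and footprints (squares, open where under 100 counts lie behind the value). All 8 mRNA values lie between 1.58% and 6.22%, RPS6 footprints stand at 30.7%, and RPS3A footprints (0 counts) cannot be drawn on the log axis.

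The 8 targets did not all keep control levels in each other's knockdowns. RPS6 mRNA lay below all 11 controls in 7 of the other 7 knockdowns (1351 to 1513 CPM, against 1525 to 1746 CPM in the controls). RPS4X mRNA lay below all controls in 6 of the other 7, and RPS23 mRNA in 4 of 7. In footprints several of them lay higher. RPS4X footprints lay above all controls in 6 of the other 7 knockdowns, and RPS6, RPS14 and RPS24 footprints in 5 of 7 each. RPS6 footprints spanned 1315 to 2593 CPM in the other 7 knockdowns, against 1177 to 1818 CPM in the controls.

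Against the controls, p53 target genes and a few cytoskeletal and nucleolar genes were called higher in the 8 knockdowns as a group, and snoRNA host genes, DNA replication genes and, in footprints, mitosis genes were called lower. Single knockdowns differed, with RPS14 inside the control range for the p53 and G1/S lists. Of 14691 genes tested in mRNA, 447 were called higher (3.04%) and 247 lower (1.68%) by edgeR's quasi-likelihood test at a Benjamini-Hochberg adjusted p of 0.05. Of 12127 genes tested in footprints, 551 were called higher (4.54%) and 366 lower (3.02%). The median log2 fold change over all genes was 0.00 in mRNA and 0.02 in footprints. Called or not, all 8 knockdowns lay above all 11 controls in 193 genes in mRNA (1.31%) and below all of them in 115 (0.783%). In footprints these were 123 genes (1.01%) and 64 (0.528%). Among genes tested in both readouts, 263 were called higher in both, which is 67.1% of the 392 mRNA calls and 47.7% of the 551 footprint calls. Only 61 were called lower in both, 39.6% of 154 mRNA calls and 16.7% of 366 footprint calls. The mRNA counts rest on single controls: without control 20_2 they were 809 and 600, and without control 5 they were 221 and 90.

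Of the 35 p53 target genes listed, 34 passed the filter on low counts in mRNA, and 14 of these were called higher and none lower, with a median log2 fold change of 0.74. In footprints 20 of 35 were called higher and 1 lower (SFN, log2 fold change −0.50), with a median of 0.80. The shares called higher over all genes were 3.04% in mRNA and 4.54% in footprints. Without control 20_2 the mRNA counts were 22 higher and 2 lower. BTG2, an antiproliferative factor, showed the largest rise. Its footprints measured 28.9, 35.8, 55.1, 37.4, 9.31, 12.3, 32 and 8.35 CPM in the RPS3A, RPS4X, RPS6, RPS13, RPS14, RPS23, RPS24 and RPS27 knockdowns (the order used for every list of 8 values), against 2.85 to 7.17 CPM (median 4.72) in the controls. All 8 lay above all 11 controls, with the RPS14, RPS23 and RPS27 knockdowns nearest to them. The log2 fold change was 2.95 ± 0.39 (SE, adjusted p = 3.4e-05, edgeR), and 2.25 in mRNA (adjusted p = 0.0024). FDXR, a mitochondrial ferredoxin reductase, had footprints of 215, 259, 366, 306, 96.6, 124, 247 and 247 CPM in the 8 knockdowns, against 49.4 to 90.5 CPM (median 63.8) in the controls. The RPS14 value was the closest to the controls (log2 fold change of the group 2.01 ± 0.25, edgeR adjusted p = 1.8e-05). XPC, a sensor of DNA damage in nucleotide excision repair, had mRNA of 75.2, 61.4, 92.8, 89.5, 46.7, 51.6, 74.3 and 53.9 CPM, against 22.7 to 32.2 CPM (median 27) in the controls. No XPC value overlapped the controls (1.4 ± 0.16, edgeR adjusted p = 3e-05). SPATA18, which acts in mitochondrial quality control, had mRNA of 6.98 to 23.7 CPM in the knockdowns and 2.69 to 6.45 CPM in the controls (1.56 ± 0.25, edgeR adjusted p = 0.00089).

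CDKN1A encodes p21, the inhibitor of cyclin-dependent kinases through which p53 stops the cell cycle. Its mRNA measured 253, 376, 366, 458, 97.6, 348, 447 and 226 CPM in the 8 knockdowns, against 114 to 249 CPM (median 169) in the controls. Of the 8, 6 knockdowns lay above all controls, RPS27 lay inside their range and RPS14 below it. The group's log2 fold change was 1.19 ± 0.26 in mRNA (adjusted p = 0.012) and 1.53 ± 0.31 in footprints (adjusted p = 0.0037, edgeR). CDKN1A footprints were again lowest in the RPS14 knockdown, at 46.6 CPM, against 55.9 to 129 CPM in the controls. MDM2 footprints measured 397, 184, 700, 513, 133, 289, 461 and 160 CPM, against 60.8 to 145 CPM (median 94.8) in the controls (1.76 ± 0.34, edgeR adjusted p = 0.0021), with RPS14 the one knockdown inside the control range. MDM2 mRNA had a log2 fold change of 1.21 ± 0.36 and missed the threshold (edgeR adjusted p = 0.058). GDF15 mRNA, a stress cytokine, gave 0.04 ± 0.20 (edgeR adjusted p = 0.94). RPS27L, a p53-inducible copy of RPS27, had mRNA of 165 to 293 CPM in the knockdowns and 65.6 to 164 CPM in the controls and missed the threshold (0.67 ± 0.22, edgeR adjusted p = 0.086).

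The level of the p53 list differed between the 8 knockdowns. Averaged over the listed genes, the mRNA level relative to the plain controls was, on a log2 scale, 1.04 in the RPS6 knockdown, 0.95 in RPS13, 0.92 in RPS24, 0.85 in RPS4X, 0.62 in RPS3A, 0.49 in RPS23, 0.30 in RPS27 and 0.05 in RPS14. The median was 0.39 in the knockdowns of the first run of columns and 0.90 in those of the second. Controls 21_1 and 21_2, beside the second run, had 0.01 to 0.02. Each target is 1 library in 1 run, and whether the order follows the target or the run was not tested. The 11 controls spanned −0.35 to 0.16. Only RPS14 lay inside that range, and it did so in footprints as well (0.03, against −0.15 to 0.09 in the controls). RPS14 was also the knockdown with 5.70% of its target mRNA left, and RPS24, with 6.22% left, had 0.92. A link between the target mRNA left and the p53 level was not tested. The 11 other 40S knockdowns had a median of 0.66 in mRNA, with a range of −0.48 to 1.64, and the 40 60S knockdowns a median of 1.28.

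**Figure D2:**
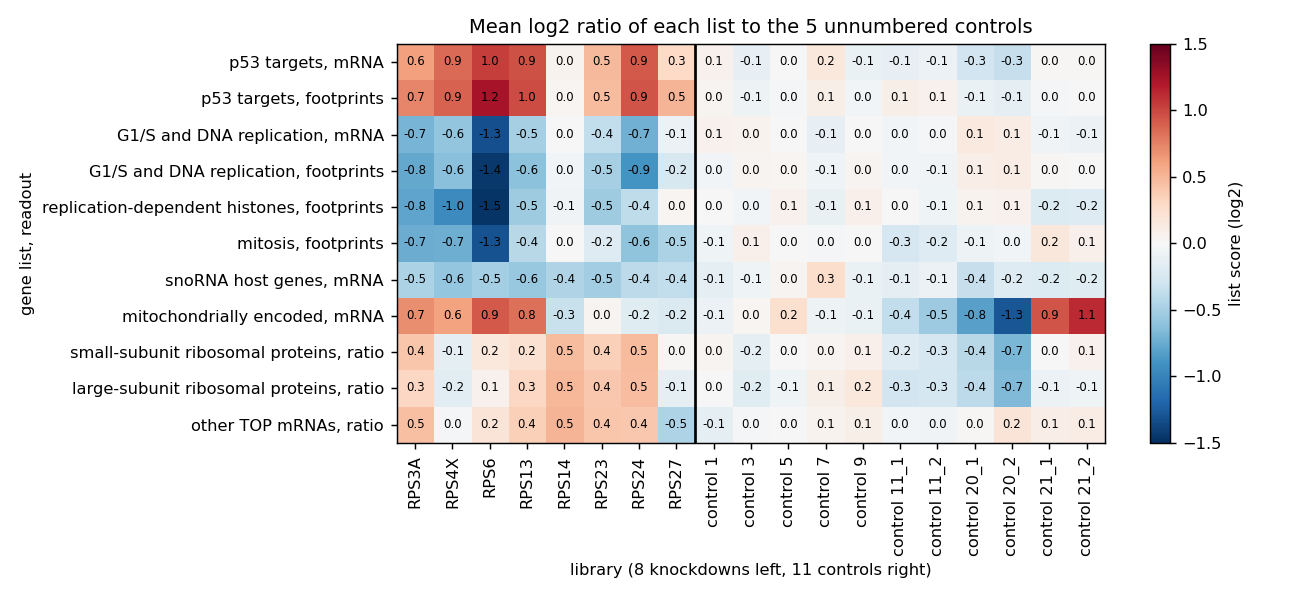
Mean log2 ratio to the 5 plain controls over the genes of each list, for the 8 knockdowns (left columns) and the 11 controls (right columns), with 1 row per list and readout and the colour scale in log2 units. In the p53 mRNA row the knockdowns run from 0.05 (RPS14) to 1.04 (RPS6), and in the snoRNA host row all 8 lie between −0.58 and −0.37.

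Genes of the cell cycle were lower. Of the G1/S and DNA replication genes, 7 of 48 were called lower in mRNA (median log2 fold change −0.48) and 15 of 47 in footprints (median −0.50), with none higher. The shares called lower over all genes were 1.68% in mRNA and 3.02% in footprints. Mitosis genes were called lower in 1 of 41 in mRNA and 15 of 41 in footprints (median −0.47). Replication-dependent histones were called lower in 0 of 40 in mRNA (median −0.38) and 11 of 42 in footprints (median −0.52). Their near-identical copies share reads, so single histone genes are uncertain. With only the RPS14, RPS23, RPS24 and RPS27 knockdowns and the 5 controls beside them, which gave 22 lower footprint calls over all genes, the calls were 2 for G1/S footprints, 0 for mitosis and 0 for histones (medians −0.34, −0.28 and −0.20). With the other 4 knockdowns and controls 21_1 and 21_2, which gave 204 lower calls over all genes, they were 11, 15 and 2 (medians −0.79, −0.86 and −0.76). In a lysate of many cells, fewer cells in a phase of the cycle and less RNA per cell cannot be told apart.

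CCNE2, the cyclin E2 that drives entry into S phase, had the lowest fold change of its list. Its footprints measured 3.64, 5.44, 2.10, 4.79, 10.7, 10.1, 2.70 and 7.73 CPM in the 8 knockdowns, against 15.2 to 27.2 CPM (median 22.5) in the controls. All 8 lay below all controls (log2 fold change −2.0 ± 0.29, edgeR adjusted p = 0.00013), while CCNE2 mRNA missed the threshold (−0.85, adjusted p = 0.17). MCM7, a subunit of the replicative helicase, had footprints of 340, 304, 222, 354, 498, 306, 302 and 372 CPM, against 548 to 726 CPM (median 608) in the controls (−0.79 ± 0.13, edgeR adjusted p = 0.00052). MCM4 footprints, from the same helicase, spanned 135 to 438 CPM in the knockdowns and 447 to 577 CPM in the controls (−0.91 ± 0.21, edgeR adjusted p = 0.0086). WEE1, the kinase that holds CDK1 inactive before mitosis, had footprints of 14.6 to 54.0 CPM in the knockdowns and 61.9 to 77.4 CPM in the controls. KIF23, a kinesin of cytokinesis, had footprints of 113 to 295 CPM in the knockdowns and 296 to 381 CPM in the controls. The 5 genes had no overlap between knockdowns and controls in footprints, and RPS6 gave the lowest value for CCNE2, MCM7 and KIF23. The footprint score of the G1/S list was −1.44 in the RPS6 knockdown, −0.90 in RPS24, −0.77 in RPS3A, −0.62 in RPS4X, −0.61 in RPS13, −0.50 in RPS23, −0.24 in RPS27 and −0.04 in RPS14, against −0.06 to 0.12 in the controls. RPS14, the knockdown without a higher p53 score, was again the one inside the control range.

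The snoRNA host genes, spliced transcripts that carry small nucleolar RNAs in their introns, were lower in all 8 knockdowns as a list. Of 15 tested, 9 were called lower in mRNA and none higher (median log2 fold change −0.51), against 1.68% lower over all genes. The list score lay between −0.58 and −0.37 in the 8 knockdowns, against −0.35 to 0.26 in the controls. The calls numbered 7 with RPS14, RPS23, RPS24 and RPS27 and the controls beside them, and 4 with the other 4 knockdowns and controls 21_1 and 21_2. SNHG5 mRNA measured 56.0, 74.7, 62.1, 58.4, 66.0, 65.0, 60.1 and 96.4 CPM in the 8 knockdowns, against 70.2 to 133 CPM (median 106) in the controls (−0.88 ± 0.13, edgeR adjusted p = 0.00055). SNHG12 measured 12.6, 12.9, 12.5, 12.7, 16.8, 12.3, 14.2 and 17.7 CPM, against 19.2 to 33 CPM (median 22.3) in the controls (−0.84 ± 0.13, edgeR adjusted p = 0.00089). For SNHG12 no knockdown reached the lowest control, while for SNHG5 the RPS4X and RPS27 values lay inside the control range. Many of these hosts are themselves TOP mRNAs that are not made into protein.

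Some nucleolar genes were higher. NOLC1, the nucleolar chaperone of snoRNPs and RNA polymerase I, had mRNA of 124 to 204 CPM in the knockdowns and 56.6 to 79.6 CPM in the controls (log2 fold change 1.33 ± 0.12 in mRNA and 1.56 in footprints). DHX37, the helicase that releases U3 snoRNA from the 40S precursor, had footprints of 60.6 to 92.1 CPM in the knockdowns and 27.5 to 51.2 CPM in the controls (1.23 ± 0.14, edgeR adjusted p = 8.4e-06). Few other genes of their lists were called. Among all genes 3.04% were called higher and 1.68% lower in mRNA, and 4.54% higher in footprints. Among 40S biogenesis factors 1 of 50 was called higher and 1 lower in mRNA, and 1 of 51 higher in footprints. Of the RNA polymerase I and nucleolar proteins 1 of 18 was called higher in mRNA and 3 of 18 in footprints. Against the 60S knockdowns, the highest log2 difference on that list was 0.38 in mRNA and 0.44 in footprints. Against the other 40S knockdowns it was 0.12 and 0.51. For footprints of 40S biogenesis factors, the highest differences from these groups were 0.43 and 0.31. The rises of NOLC1 and DHX37 over the controls were larger, and were thus shared at least in part with the other knockdowns.

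A few metabolic and stress genes fell. ATF4, the transcription factor of the integrated stress response, had mRNA of 217, 257, 225, 213, 237, 242, 232 and 277 CPM in the 8 knockdowns, against 345 to 632 CPM (median 471) in the controls. No value overlapped (log2 fold change −0.78 ± 0.12, edgeR adjusted p = 0.00065), whereas ATF4 footprints missed the threshold (−0.37 ± 0.27, adjusted p = 0.45). Of the 26 tested genes of the ATF4 list 2 were called lower in mRNA (ATF4 and MTHFD2). In footprints 3 were called lower and 1 higher. The shares over all genes were 1.68% lower in mRNA, and 3.02% lower and 4.54% higher in footprints. MTHFD2, a mitochondrial folate enzyme, had footprints of 114 to 253 CPM in the knockdowns and 222 to 395 CPM in the controls (−0.73 ± 0.15, edgeR adjusted p = 0.0034). In sterol synthesis, 1 of 26 genes was called lower in mRNA, and in footprints 3 were called lower and 1 higher (median −0.31). The counts of 1 in 26 lay near the shares over all genes. HMGCS1, which makes the HMG-CoA used for cholesterol, had footprints of 160, 242, 233, 230, 333, 190, 252 and 307 CPM, against 388 to 652 CPM (median 504) in the controls. All 8 HMGCS1 values lay below all controls (−1.08 ± 0.14, edgeR adjusted p = 3.4e-05).

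Actin cytoskeleton genes were called higher in 3 of 14 in mRNA (TPM2, TPM4 and ACTA2) and 4 of 14 in footprints. Among all genes these shares were 3.04% and 4.54%. TPM4, a tropomyosin that binds along actin filaments, had mRNA of 691, 544, 670, 833, 639, 291, 613 and 787 CPM in the 8 knockdowns, against 106 to 188 CPM (median 154) in the controls. The lowest knockdown, RPS23, was still above the highest control (log2 fold change 1.95 ± 0.19, edgeR adjusted p = 2.6e-06). ACTA2, smooth muscle actin, had mRNA of 25.9, 36.3, 38.9, 32.6, 9.18, 13.2, 32 and 13.5 CPM, against 4.30 to 8.90 CPM (median 6.74) in the controls (2.09 ± 0.30, edgeR adjusted p = 0.00048). RPS14, RPS23 and RPS27 were the lowest of the 8 for ACTA2, though still above all controls. The 8 fibroblast markers, of which COL1A1 is the one above 1 CPM, summed to 16.9 to 44.6 CPM of mRNA in the knockdowns and 10.6 to 26.1 CPM in the controls, with COL1A2 at or under 0.0464 CPM and DCN at or under 0.118 CPM in every knockdown. These rises were found beyond the 8: TPM4 mRNA lay above all 11 controls in 83 of the 83 other knockdown libraries, and ACTA2 mRNA in 77. Every control received a non-targeting siRNA, so a higher level in the knockdowns and a lower level in the controls cannot be told apart.

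**Figure D3:**
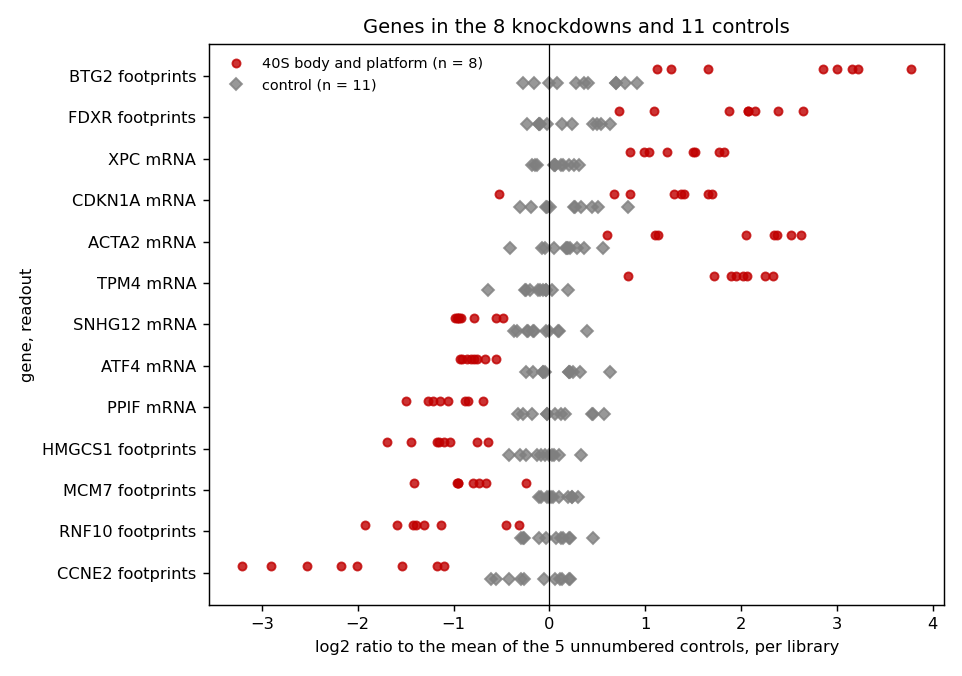
Log2 ratio of each library to the mean of the 5 plain controls for 13 gene and readout pairs (1 row each), with the 8 knockdowns and the 11 controls as separate points and 0 as the control mean. TPM4 mRNA lies apart from the controls in all 8 knockdowns, and CDKN1A mRNA does so in 6, with RPS14 below the controls.

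Other large changes against control were likewise found in other knockdowns of the series, with the same limit set by the shared controls. Among the mRNAs, HSDL2 measured 47.6 to 93.3 CPM in the 8 knockdowns and 13.4 to 29.9 CPM in the controls, and HABP4 measured 13.4 to 24.1 CPM in the knockdowns and 5.49 to 8.38 CPM in the controls. Both lay above all controls in 83 of 83 other knockdowns. GANAB, the catalytic subunit of glucosidase II in the endoplasmic reticulum, had mRNA of 280 to 313 CPM in the knockdowns and 92.8 to 189 CPM in the controls (log2 fold change 1.45 ± 0.14). PCNX3 footprints measured 24.4 to 48.9 CPM in the knockdowns and 3.90 to 13.2 CPM in the controls (2.34 ± 0.26). GANAB and PCNX3 mRNA each lay above all controls in 80 of 83 other knockdowns. FOXP4, OGFR and BICD2 footprints rose by 2.32, 2.19 and 1.95 on the log2 scale, and lay above all controls in 82, 83 and 82 of the 83 others. For TFEB, the transcription factor of lysosomal genes, mRNA measured 5.61 to 8.91 CPM in the 8 knockdowns and 2.17 to 5.46 CPM in the controls, and lay above all controls in 37 of 83 others.

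Among falls, PPIF, the mitochondrial cyclophilin D, had mRNA of 97.7, 79.6, 84.9, 73.4, 109, 75.6, 95.6 and 62.1 CPM in the 8 knockdowns, against 141 to 263 CPM (median 185) in the controls (log2 fold change −1.05 ± 0.15, edgeR adjusted p = 0.00048). CDCA4 mRNA, a cell-cycle gene, measured 23.2 to 65.7 CPM in the knockdowns and 77.3 to 131 CPM in the controls. PPIF lay below all controls in 73 and CDCA4 in 76 of 83 other knockdowns. SPTLC2, a subunit of the enzyme that starts sphingolipid synthesis, had footprints of 24.8 to 56.8 CPM in the 8 knockdowns and 64.1 to 81.8 CPM in the controls (−0.89 ± 0.14, edgeR adjusted p = 0.00043). It lay below all controls in 42 and above all controls in 8 of the other 83. RNF10, the ubiquitin ligase that marks RPS2 and RPS3 on stalled 40S subunits, had footprints of 10.8, 24.5, 8.52, 15.1, 13.3, 12.2, 12.5 and 26.9 CPM in the 8 knockdowns, against 27.3 to 46.2 CPM (median 35.3) in the controls. All 8 lay below all controls (−1.11 ± 0.22, edgeR adjusted p = 0.003), while among the other 83 knockdowns RNF10 footprints lay below all controls in 37 and above them in 33.

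The footprint-to-mRNA ratio, taken within each lysate as the log2 of footprint CPM over mRNA CPM, gave no call against the controls. Limma called 0 of 11966 genes in either direction (0%), with 557 higher and 310 lower at an unadjusted p under 0.05, and edgeR's interaction test over both assays also called 0 (377 at an unadjusted p under 0.05). In 9 genes (0.0752%) all 8 ratios lay above all controls, and in 10 (0.0836%) below them. CCNE2 was among those 10, with a difference in the log2 ratio of −1.23 ± 0.27 (limma adjusted p = 0.35). The ribosomal proteins had medians of 0.33 for the 30 tested small-subunit genes and 0.20 for the 45 large-subunit genes, against −0.01 over all genes, with no member called. In mRNA alone 0 of 32 small-subunit and 6 of 47 large-subunit genes were called lower, against 1.68% of all genes. RPL5 mRNA was one of the 6 (285 to 377 CPM in the knockdowns, 366 to 479 CPM in the controls, −0.32 ± 0.09, edgeR adjusted p = 0.049), and RPL11 mRNA missed the threshold (0.08, adjusted p = 0.69). RPL22L1, a copy of RPL22, had lower footprints (−0.65 ± 0.19, edgeR adjusted p = 0.036), and MYC mRNA, a driver of ribosome production, missed the threshold (−0.20 ± 0.11, edgeR adjusted p = 0.34).

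The comparison with the 11 other 40S knockdowns asks whether the 8 differ from knockdowns of other proteins of the same subunit. The 11 are the remaining 40S targets with plain titles, not chosen by their place in the subunit. They include RPS4Y and RPS27L, copies of RPS4X and RPS27. No gene was called: 0 of 15432 in mRNA (0%), 0 of 12759 in footprints (0%) and 0 of 12413 in the ratio (0%), with edgeR for the counts and limma for the ratio. At an unadjusted p under 0.05 there were 381, 714 and 612 genes. Without the RPS4Y and RPS27L knockdowns the calls were 0 in mRNA, footprints and the ratio. DESeq2 size factors gave 0 in mRNA and footprints as well, and a fit of footprints with no filter on low counts gave 110 higher and 13 lower. The size of the response, taken per library as the SD of its genes' log2 ratios to the plain controls, averaged 0.401 ± 0.0648 in mRNA for the 8 and 0.407 ± 0.0573 for the 11 others (SD), with a difference of −0.00577 (two-sided exact permutation p = 0.845, n = 8 and 11). In footprints it averaged 0.507 ± 0.107 for the 8 and 0.491 ± 0.0820 for the 11 others (difference 0.0159, two-sided exact permutation p = 0.711, n = 8 and 11). RPS14 had the smallest value of the 8 in both readouts (0.299 in mRNA and 0.358 in footprints). RPS6 had the largest in mRNA (0.523) and RPS27 the largest in footprints (0.735). All 11 controls spanned 0.140 to 1.17 in mRNA and 0.179 to 0.589 in footprints, a range that overlaps the knockdowns. The 5 plain controls, which are their own baseline here, spanned 0.140 to 0.272 in mRNA and 0.179 to 0.260 in footprints. Within the first run of columns the permutation p was 0.238 in mRNA and 0.895 in footprints (exact, 4 and 6 lysates), and within the second 0.159 and 0.0635 (exact, 4 and 5 lysates). A p above the threshold does not show that the groups act alike.

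Against the 40 60S knockdowns many genes differed, ribosomal proteins and other TOP mRNAs among them. Of 15432 genes in mRNA, 825 were called higher in the 8 body and platform knockdowns (5.35%) and 1014 lower (6.57%). In footprints 278 of 12759 were called higher (2.18%) and 230 lower (1.8%). In the ratio, limma called 373 of 12413 higher (3%) and 336 lower (2.71%). In the ratio, 20 of 31 tested small-subunit proteins were called higher and none lower (median difference 0.81), as were 35 of 47 large-subunit proteins (0.73) and 16 of 19 other TOP mRNAs (0.68), where PABPC1 alone was called lower, a call lost with the run of columns as a term (limma adjusted p = 0.079). Over all genes the median difference was 0.01. In mRNA the same lists were lower, with 17 of 19 other TOP mRNAs (median −0.41), 9 of 47 large-subunit and 15 of 32 small-subunit genes called lower. The small-subunit count includes members lowered by their own siRNA. In footprints 12 of 31 small-subunit, 21 of 47 large-subunit and 9 of 19 other TOP genes were called higher.

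The 30 bases around the RefSeq start sites of 5 TOP mRNAs with a higher ratio than in the 60S knockdowns, and of 5 genes with a lower ratio, are shown to compare their pyrimidine runs. The lower ratios of ESF1 and EEA1 lost their call with the run of columns as a term (limma adjusted p = 0.17 and 0.061). Each is read 5′ to 3′ on the gene's strand from 15 bases before the start site (GRCh38.p14, RefSeq promoters), and capitals mark the longest unbroken run of C and T.
RPS6, chr9:19380222-19380251, minus strand: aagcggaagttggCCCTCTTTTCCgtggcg
RPLP1, chr15:69452803-69452832, plus strand: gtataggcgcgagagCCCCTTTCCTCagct
EEF1A1, chr6:73521018-73521047, minus strand: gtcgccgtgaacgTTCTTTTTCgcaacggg
EIF4B, chr12:53006441-53006470, plus strand: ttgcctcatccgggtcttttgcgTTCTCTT
EEF1G, chr11:62573877-62573906, minus strand: TCTCCCgggcggcttactttgcggcagcgc
RNF10, chr12:120534341-120534370, plus strand: cgggTTCTTTgagatgctgtttggcgactc
SLC35G1, chr10:93893963-93893992, plus strand: gaagagcggcagCCCaggcgctgctgctgg
CMC4, chrX:155071122-155071151, minus strand: gggccgcaggcggacgtaCTCTgtgagcgg
ESF1, chr20:13784905-13784934, minus strand: cacgcggaggattgtgggtgtgagCCCCac
EEA1, chr12:92929281-92929310, minus strand: CCCggcgggcgggctggaggcgctcgcagg
The longest runs were 11, 11, 9, 7 and 6 bases in the first 5 and 6, 3, 4, 4 and 3 in the second 5. EEF1G and RNF10 thus had runs of equal length, and the sets overlap. Those 2 runs began 15 and 11 bases before the start site and ended before it. The EIF4B run began 8 bases after the start site. The RPS6 and EEF1A1 runs began 2 bases before it, and that of RPLP1 at it. A run of 8 or more lay in this window for 35.6% of the 298 matched genes called higher in the ratio and 10.6% of the 282 called lower, against 13.4% of the 9895 matched genes tested and 13.4% of all 27305 RefSeq promoters. Among the ribosomal proteins and other TOP mRNAs it was 73.3% of 75, and among the genes called higher that were on none of those 3 lists, 28.4% of 243. A run in the window is a description of the letters there, not of a start site used in these cells.

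RPS3, a protein of the mRNA entry channel, had log2 ratios of 0.29, −0.35, −0.06, 0.23, 0.21, −0.01, 0.08 and −0.57 in the 8 knockdowns, against −1.70 to −0.46 (median −1.30) in the 60S knockdowns. The RPS27 value was the one body and platform ratio that entered the 60S range (difference 1.26 ± 0.12, limma adjusted p = 9e-12). RPL27A ratios lay between −1.33 and −0.65 in the 8 knockdowns, and between −3.04 and −1.58 in the 60S knockdowns, with no overlap (1.38 ± 0.14, limma adjusted p = 1.4e-10). EEF1A1, the factor that brings aminoacyl-tRNA to the ribosome, had mRNA of 2850 to 4220 CPM in the 8 and 3950 to 6560 CPM in the 60S knockdowns, and its ratio differed by 1.41 ± 0.22. EEF1G, a subunit of the exchange factor that recharges it, had footprints of 116 to 192 CPM in the 8 and 50.3 to 147 CPM in the 60S knockdowns (ratio difference 1.41 ± 0.17, limma adjusted p = 6.9e-09). EIF4B, which helps the helicase eIF4A unwind mRNA, had mRNA of 398, 460, 431, 420, 403, 329, 367 and 670 CPM in the 8 knockdowns, against 544 to 1300 CPM (median 940) in the 60S knockdowns. Only RPS27 reached the 60S range, and the mRNA difference was −1.06 ± 0.12 (edgeR adjusted p = 4.2e-09). For RPS6 the ratio difference was 1.71 ± 0.21 with its own knockdown included. The other 7 knockdowns averaged 0.52 ± 0.38, against −0.71 ± 0.27 in the 60S knockdowns (SD, n = 7 and 40).

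The ratios of the TOP lists also differed between the 8 knockdowns, with 1 library each and no member called against the controls. Averaged over the small-subunit proteins, the log2 ratio relative to the plain controls was 0.48 in the RPS14 and RPS24 knockdowns, 0.42 in RPS3A, 0.36 in RPS23, 0.23 in RPS13, 0.16 in RPS6, 0.02 in RPS27 and −0.13 in RPS4X. Without the gene that each library's own siRNA targets, RPS3A had 0.28, RPS6 0.03 and RPS27 −0.08, while the other 5 moved by at most a few hundredths. The 60S knockdowns had a median of −0.54, with 38 of 40 below 0, and the controls spanned −0.68 to 0.07. Without their own target, RPS4X, RPS6 and RPS27 lay inside that control range. For the other TOP mRNAs, RPS27 was lowest of the 8 at −0.46 and RPS14 highest at 0.51, against a median of −0.57 and a highest value of −0.04 in the 60S knockdowns, with the controls at −0.13 to 0.19. The 11 other 40S knockdowns had medians of 0.29, 0.29 and 0.40 for the 3 lists. RPS14, whose p53 score lay inside the control range, had the highest value of the 8 for large-subunit proteins as well, at 0.50, against a median of −0.51 in the 60S knockdowns.

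**Figure D4:**
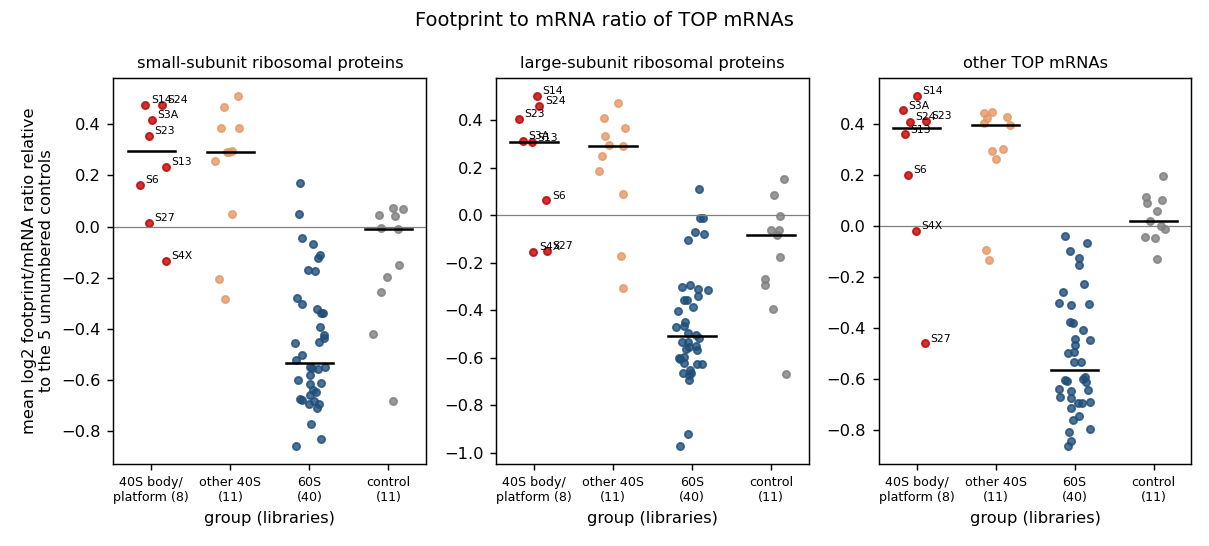
Mean log2 footprint-to-mRNA ratio relative to the 5 plain controls over small-subunit proteins, large-subunit proteins and other TOP mRNAs (3 panels), with 1 point per library for the 8 body and platform knockdowns, 11 other 40S knockdowns, 40 60S knockdowns and 11 controls, and bars at the medians. For the small-subunit proteins the 8 lie between −0.13 and 0.48, and the 60S knockdowns have a median of −0.54.

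Outside the TOP mRNAs, 2 of the 22 genes of ribosome quality control and 40S ubiquitination were called higher in the ratio and 4 lower. Over all genes these shares were 3% and 2.71%. RNF10 footprints were 8.52 to 26.9 CPM in the 8 knockdowns, against 22.4 to 74.5 CPM (median 51.5) in the 60S knockdowns (−1.71 ± 0.20, edgeR adjusted p = 8.5e-09). Its mRNA missed the threshold (−0.13, adjusted p = 0.35), and was 166 to 205 CPM in 7 knockdowns and 69.7 CPM in the RPS6 knockdown. The RNF10 ratio differed by −1.56 ± 0.18 (limma adjusted p = 2.4e-09). IBTK, a substrate adaptor of CUL3 ubiquitin ligases, had footprints of 153, 137, 133, 187, 139, 196, 167 and 113 CPM in the 8 knockdowns, against 37.7 to 156 CPM (median 72.1) in the 60S knockdowns (1.10 ± 0.14, edgeR adjusted p = 7.2e-08). The IBTK ratio differed by 1.24 ± 0.15 (limma adjusted p = 6.9e-09), and the controls spanned 61.1 to 141 CPM of footprints. QARS1, the glutaminyl-tRNA synthetase, had a ratio difference of 1.05 (limma adjusted p = 2.1e-10), made of a lower mRNA (−0.59) and higher footprints (0.45). In mRNA 3 of the same 22 genes were called higher and 1 lower (median −0.07), against 5.35% and 6.57% of all genes. The smallest p-values were those of ZNF598 (0.42, adjusted p = 0.00011) and LTN1 (0.41, adjusted p = 0.00022, edgeR). They are ligases that act on collided ribosomes and on stalled nascent chains.

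In mRNA, ATF4 measured 213 to 277 CPM in the 8 knockdowns, against 296 to 617 CPM (median 443) in the 60S knockdowns, with no overlap (−0.92 ± 0.10, edgeR adjusted p = 1e-09). The 11 other 40S knockdowns spanned 187 to 353 CPM. SNHG5 mRNA was lower as well (−0.91 ± 0.11, edgeR adjusted p = 7.9e-09), and 9 of 15 snoRNA hosts were called lower (median −0.32). Of 15 NF-kB targets, 7 were called lower (median −0.35), among them NFKBIA, the inhibitor of NF-kB (−0.40, edgeR adjusted p = 0.0039). SMOX, spermine oxidase, measured 136 to 230 CPM in the 8 and 193 to 439 CPM in the 60S knockdowns (−0.92, edgeR adjusted p = 7.7e-08). Of the 35 p53 targets 5 were called lower than in the 60S knockdowns and none higher, and the median over the list was −0.46. TRIAP1, an inhibitor of apoptosis, was one of them (−0.98, edgeR adjusted p = 0.0039). CDKN1A missed the threshold (−1.0 ± 0.38, adjusted p = 0.068), as did MDM2 (−0.67, adjusted p = 0.13) and BTG2 (−0.98, adjusted p = 0.11, edgeR). Among the highest differences in mRNA, BRCA2, a protein of homologous recombination, gave 1.04 (edgeR adjusted p = 0.002) and ASPM, a spindle pole protein, 0.93 (edgeR adjusted p = 0.0084). Histone mRNAs were called higher in 20 of 41 (median 0.65) and mitosis genes in 9 of 41 (median 0.52). Of 48 G1/S genes 4 were called higher and 1 other lower (median 0.43). Over all genes 5.35% were called higher and 6.57% lower, so the G1/S count lay near that share. Footprints gave few such calls, with 1 of 44 histones and 0 of 41 mitosis genes higher (medians 0.54 and 0.42). For NF-kB targets 0 of 16 were lower in footprints (median −0.32). In the ratio 4 of 39 histones were called lower, and of 41 mitosis genes 4 were lower and 1 higher. Here 34 of the 40 60S knockdowns lie in the first run of columns and 4 of the 8 body and platform knockdowns in the second. With the run as a term the mRNA calls were 18 for histones, 3 for mitosis and 6 for snoRNA hosts. Those for the TOP lists in the ratio were 21 small-subunit, 37 large-subunit and 16 other genes.

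**Figure D5:**
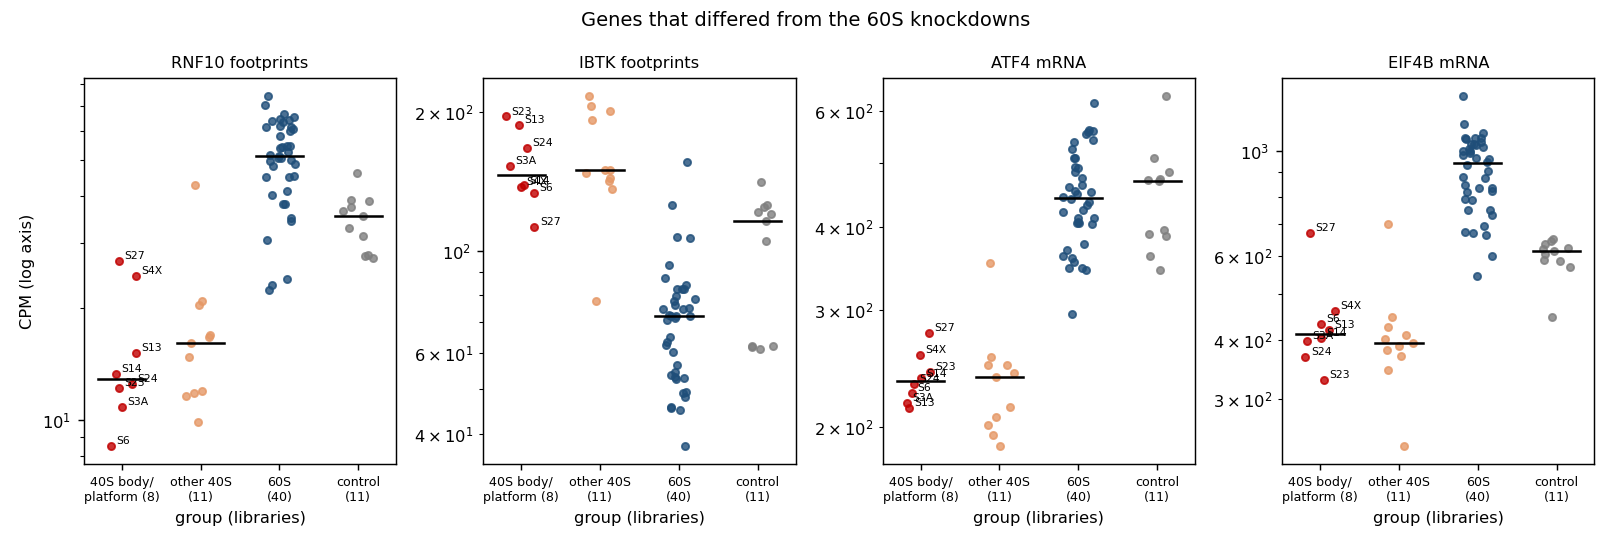
CPM on a log axis of RNF10 footprints, IBTK footprints, ATF4 mRNA and EIF4B mRNA, with 1 point per library for the 8 body and platform knockdowns, 11 other 40S knockdowns, 40 60S knockdowns and 11 controls, and bars at the medians. ATF4 mRNA of the 8 (213 to 277 CPM) lies below every 60S knockdown (296 to 617 CPM).

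Single knockdowns also held genes far from the other 7 and from the controls. These rest on 1 library each and have no replicate check, so no test is given, and genes are named by the gap between that library and both the other 7 knockdowns and all controls. With 1 library per target, an effect of the siRNA on other mRNAs and the loss of the protein cannot be told apart. Beside RPS3A, CAPG, which caps actin filaments, had mRNA of 4.30 CPM in the RPS3A knockdown, against 30.9 to 44.5 CPM in the other 7 and 27.3 to 93.4 CPM in the controls. MACROH2A1, a histone variant, had mRNA of 51.4 CPM in the RPS4X knockdown, against 188 to 234 CPM in the other 7 and 191 to 309 CPM in the controls.

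In the RPS6 knockdown SPP1, the secreted protein osteopontin, had mRNA of 32.5 CPM, against 172 to 292 CPM in the other 7 and 153 to 265 CPM in the controls. FAS, the death receptor, had footprints of 136 CPM there, against 31.4 to 72.4 CPM in the other 7 and 19.4 to 41.2 CPM in the controls. CETN2, a centrosome protein that also joins XPC, had mRNA of 5.92 CPM in the RPS13 knockdown, against 36.5 to 54.3 CPM in the other 7. In the RPS14 knockdown EGFR footprints were 86.9 CPM, against 256 to 412 CPM in the other 7 and 259 to 504 CPM in the controls. FTL, the ferritin light chain, had mRNA of 888 CPM in the RPS23 knockdown, against 4760 to 7500 CPM in the other 7 and 5650 to 13100 CPM in the controls. PTBP2, a splicing repressor, had footprints of 125 CPM there, against 15.9 to 40.3 CPM in the other 7.

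NDUFA4, a subunit of cytochrome c oxidase, had mRNA of 10.8 CPM in the RPS24 knockdown, against 63.2 to 89.8 CPM in the other 7 and 61.6 to 101 CPM in the controls. The cytokine IL11 had mRNA of 279 CPM there, against 65.5 to 127 CPM in the other 7. STARD7, which carries phosphatidylcholine to mitochondria, had mRNA of 27.7 CPM in the RPS27 knockdown, against 131 to 238 CPM in the other 7 and 232 to 289 CPM in the controls. TMEM238 footprints were 74.2 CPM there, against 6.17 to 13.2 CPM in the other 7. Counting every gene more than 1 log2 unit below both the other 7 and the controls, the target included, mRNA gave 42 for RPS24, 36 for RPS6, 34 for RPS23, 21 for RPS4X, 14 for RPS3A, 9 for RPS13, 9 for RPS27 and 7 for RPS14. Footprints gave 66 for RPS23, 63 for RPS27, 31 for RPS6, 30 for RPS24, 26 for RPS4X, 26 for RPS13, 17 for RPS3A and 9 for RPS14. Above both, RPS27 had 29 genes in footprints, and every other target had 0 to 2 in either readout. The RPS27 Ribo-seq library is the shallowest of the 8 (14576784 counts), and that of RPS3A, with 0 genes above, held 15625495. A link to depth was not tested.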

How the data were processed

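A549 lysates were measured by RNA-seq and Ribo-seq, 102 libraries each. The deposited tables hold raw read counts per gene (exons for mRNA, coding sequences for footprints) with no normalization, per the labels. The submitters' processing notes name STAR 2.6.1 and the GRCh38 build, cutadapt 1.8.1 and bcl2fastq 2.20.0.422. What counted the reads, with which annotation, and how it treated strand and reads with several positions is not given in the sources used here. Values of genes that share reads with near-identical copies, such as histones and ribosomal proteins with pseudogenes, are therefore uncertain.

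Groups follow the library titles. Genes were kept at 1 CPM or more in at least 8 libraries. Counts were tested with edgeR 4.0.16 (quasi-likelihood, TMM factors), with the title set (plain or numbered) as a covariate against controls. The contrasts with other 40S and 60S knockdowns came from 1 fit over the 64 lysates with plain titles. Each lysate gave both libraries, so the log2 ratio was formed within a lysate (prior count 2) and tested with limma 3.58.1. Adjusted p-values are Benjamini-Hochberg over all genes tested, with a threshold of 0.05. DESeq2 1.42.0 was an alternative. Levels are CPM scaled with TMM over all libraries. List scores are means over members of the log2 ratio (pseudocount 0.5) to the mean of the 5 plain controls. A fold change is on the scale of the fitted counts. Libraries of the 8 knockdowns and the controls differed beyond counting noise in every pair (chi-square per gene at least 3.28). The closest pairs were controls 21_1 and 21_2 in mRNA (3.28) and controls 11_1 and 11_2 in footprints (5.37). Such a difference cannot show separate cultures, because repeats of 1 culture can also differ beyond counting noise. Each library was counted as 1 sample. The precision follows depth, with 12592548 counts in the shallowest library fitted.

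The members and the 35 gene lists were chosen with earlier results of these data known. Genes were named by rule: the largest called changes with a mean of 10 CPM or more and no overlap between groups (8 each way per readout against controls), the 5 largest each way against other 40S (none called) and 60S knockdowns, the 2 members with the smallest p per list, the 2 genes per target furthest above and below all others, and the 8 targets with a fixed set (CDKN1A, MDM2, BTG2, GDF15, MYC, RPL5, RPL11, RPS27L, RPL22L1, RNF10, IBTK, TPM4 and ACTA2, with some named genes not reported here). Other list members named without a fold change of their own were picked after their values were seen. Runs of columns are neighbours in the deposited tables, which the labels do not call batches.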

Additional observations from a re-analysis of the deposited data

Results flagged for a closer look

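These values lay apart from the rest of their group of 8 knockdowns by Dixon's criterion, which chance meets in about 1 group in 20. The RPS14 knockdown was low for CDKN1A, at 97.6 CPM in mRNA and 46.6 CPM in footprints. The RPS23 knockdown was low for TPM4, at 291 CPM in mRNA and 58.4 CPM in footprints. The RPS6 knockdown was low for RNF10 mRNA, at 69.7 CPM. The RPS27 knockdown was high for EIF4B mRNA, at 670 CPM. Among the other targets' levels outside their own knockdown, the RPS27 library was low for footprints of RPS3A (0 CPM), RPS4X (585 CPM) and RPS24 (465 CPM), and it is the shallowest Ribo-seq library of the 8. Among the 5 plain controls, control 3 was high in the size of its mRNA response, with an SD of 0.272.

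The contrast between body and platform knockdowns and 60S knockdowns tests directly whether their effects differ. It gave 825 genes higher and 1014 lower in mRNA, 278 higher and 230 lower in footprints (edgeR), and 373 higher and 336 lower in the ratio (limma).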

How the results depend on the processing

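Settings are given as genes higher and lower. For mRNA against controls, with 447 and 247 called, the counts were 1160 and 1366 without the title term, 1029 and 724 with the 5 plain controls alone, 831 and 585 with the run of columns as a term, 279 and 105 with the second run alone, and 809 and 600 without control 20_2. DESeq2's Wald test gave 462 lower and no filter gave 121 lower. For footprints, with 551 and 366 called, they were 916 and 667 without the title term, 1099 and 896 with the run term, 110 and 22 in the first run alone, and 268 and 204 in the second. For the ratio, with 0 called, they were 14 and 2 without the title term, 12 and 1 with the run term, and 3 higher without control 20_2. Without a filter, footprints gave 110 and 13 against other 40S and 694 higher against 60S knockdowns, and mRNA gave 630 lower against 60S knockdowns. Leaving out 1 library at a time gave 221 to 809 higher and 90 to 600 lower in mRNA, 313 to 645 and 134 to 508 in footprints, and 0 to 3 and 0 to 0 in the ratio. Counts moved by over 1.5 times for mRNA without controls 1 (273 and 133), 5 (221 and 90), 7 (244 and 90), 9 (250 and 117) and 20_2, and in lower calls without control 3 (121), RPS13 (132) or RPS4X (164). For footprints they did so without controls 3 (323 and 134), 5 (313 and 170), 7 (340 and 151) and 9 (327 and 140), and for the ratio without control 1 (1 higher), RPS23 (1 higher) or control 20_2. The cause was not tested. The pairing of both assays by lysate is in the ratio itself. The interaction fit with no replicate block gave 0 and 0. Without the title term, lower mRNA calls outnumbered higher ones. The difference in footprint response size against other 40S, 0.0159, became −0.00755 with all 11 controls as the baseline, a shift smaller than the spread between libraries. Of values for single genes, 341 of those with 1 library left out were no longer past the threshold and 80 newly were, and with the run term 49 and 74. Against 60S knockdowns the run term ended the calls of ESF1 (adjusted p = 0.17), EEA1 (0.061) and PABPC1 (0.079) in the ratio. The footprint values of RPS3A and RPS27 rest on few counts in the controls as well. Their control medians were 0.937 and 3.57 CPM in footprints, against 595 and 156 CPM in mRNA. The reason for the low footprint counts was not tested.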

Other observations

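Further named genes differed between the 8 body and platform knockdowns and the 40 60S knockdowns. PTGS2, the inducible cyclooxygenase, had a log2 fold change of −1.04 in footprints (edgeR adjusted p = 0.001) and −0.90 in mRNA. The chemokine CXCL5 had −1.14 in mRNA (edgeR adjusted p = 0.0085), and CITED2, a transcriptional coregulator, −1.0 (edgeR adjusted p = 2.2e-05). IL6 mRNA was barely counted, at 0.157 to 0.888 CPM in the 8 and 0.28 to 2.26 CPM in the 60S knockdowns. The cytokine IL11 went the other way, with higher footprints than in the 60S knockdowns (1.09, edgeR adjusted p = 0.013). COL1A1, the one fibroblast marker above 1 CPM in mRNA, had more footprints than the controls (1.13, edgeR adjusted p = 0.0079) and than the 60S knockdowns (1.10). EIF1, a factor of start-codon selection, had lower footprints than in the 60S knockdowns (−0.68, edgeR adjusted p = 0.00031), and lower mRNA (−0.48).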
